A study of Homo sapiens with 15 samples.

Results

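The levels of 10 genes of the phosphoinositide 3-kinase (PI3K), insulin and FOXO pathway were followed in an EGFR inhibition study in MDA-MB-468 cells, an established human breast cancer line with abundant EGFR. The members are the receptor genes INSR and IGF1R, the adaptors IRS1 and IRS2, the catalytic subunits PIK3CA and PIK3CB, the regulatory subunits PIK3R1 and PIK3R3, the PI3K inhibitor PIK3IP1 and the transcription factor FOXO3. They were chosen by gene symbol, with earlier results of these data known. All 10 were found by their Ensembl identifiers among the 61552 genes of the deposited counts table. Polyadenylated RNA was sequenced in 15 libraries, 3 in each of 5 groups. In the drug experiment, cells were starved of serum for 12 h and then held for 12 h with 10 ng/mL EGF alone (EGF), with EGF and 15 µM erlotinib, a small molecule inhibitor of the EGFR tyrosine kinase (ERL), or with EGF and 10 µM cSNX1.3, a peptide directed at the contact between EGFR and Sorting Nexin 1 that keeps EGFR from the nucleus (cSNX). No library of cells given a control peptide was analysed here. In the line experiment, an IPTG-inducible lentiviral hairpin RNA against the 3′ UTR of EGFR, carried with puromycin resistance, lowered the cells' own EGFR, and the cells were given a plasmid with EGFR fused to GFP, either wildtype (shEGFR-WT) or with basic residues of the nuclear localization sequence changed to acidic ones (shEGFR-NLS). Both lines carry the hairpin, so neither is an unmodified control. The study states that the line cells were treated with EGF before sequencing and were kept in IPTG throughout. The EGF dose of the line libraries was not given in the sources used here. Nothing states whether the replicates were separate cultures, so p-values measure only the spread between these libraries, which may be technical.

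Insulin and insulin-like growth factors bind the receptor kinases INSR and IGF1R, which phosphorylate the docking proteins IRS1 and IRS2. These recruit PI3K through its regulatory subunits, the catalytic subunits make the membrane lipid that activates AKT, and AKT keeps FOXO factors out of the nucleus. FOXO factors in turn are known to raise the RNA of several upstream members of the pathway when AKT activity is low, and EGFR feeds the same kinase.

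The counts on genes summed to between 22915676 and 35900649 per library. Mitochondrial genes took 2.24% to 3.06% of them. EGFR itself stood at 4320 to 4960 CPM (counts divided by the TMM-scaled library size in megacounts) in the EGF group, 4560 to 4990 in ERL and 5760 to 6500 in cSNX. The lines held less, with 1150 to 1450 CPM in shEGFR-WT and 1690 to 1750 in shEGFR-NLS, counts that include reads from the EGFR part of the GFP fusion. EGFR was 1.29-fold higher in shEGFR-NLS than in shEGFR-WT (edgeR's quasi-likelihood test, Benjamini-Hochberg adjusted p = 0.00367), so the amount of EGFR and the change in its localization sequence cannot be told apart in this comparison. With cSNX, EGFR was 1.30-fold the EGF level without passing (edgeR adjusted p = 0.0622), in libraries that did not overlap, and 1.30-fold the ERL level (adjusted p = 0.0102), and its part in the cSNX results was not tested. Epithelial genes were present in every library (EPCAM at 334 to 490 CPM). PGR, DCN and KLRD1 had no count in any library, and the 5 leukocyte markers summed to at most 0.222 CPM. Other markers of the same lists were detected, with ESR1 at 2.79 to 8.42 CPM and the fibroblast marker COL1A1 at 8.26 to 21.3. The 3 endothelial markers summed to at most 6.87 CPM. The 7 epithelial and basal markers summed to 5930 to 6910 CPM in ERL against 12700 to 17200 in EGF. In shEGFR-NLS they summed to 8710 to 10900 CPM, against 14200 to 16400 in shEGFR-WT. The keratin KRT8 alone was at 2460 to 9200 CPM over all libraries and weighs heavily in these sums. CDH1 (81.2 to 133 CPM) had ERL as its highest group, so the sums do not describe every marker. The part of these markers in the results was not tested. In such bulk samples, fewer cells of a type and less RNA per cell cannot be told apart.

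With ERL, 6 of the 10 genes passed the test, with PIK3IP1, PIK3R1, PIK3CB and PIK3CA higher and IRS1 and IRS2 lower than with EGF alone. Over all 15738 genes tested, 44.0% were called in this comparison, 22.8% higher and 21.2% lower, so the share among the 10 genes should be read against a large background. With cSNX only IRS2, higher, and PIK3R1, lower, passed, where 6.07% of all genes were called, 3.38% higher and 2.69% lower. Between the lines 7 of the 10 genes passed, with INSR, IRS2 and PIK3R1 higher and PIK3CA, PIK3CB, PIK3IP1 and FOXO3 lower in shEGFR-NLS than in shEGFR-WT, against 41.4% of 15805 genes, 20.4% higher and 21.0% lower. The libraries of the groups compared did not overlap for 8 of the 10 genes with ERL, 5 with cSNX and 8 between the lines, where this held for 52.3%, 25.7% and 52.2% of all genes tested. The comparisons of ERL and cSNX with EGF share the 3 EGF libraries. The median log2 fold change of the 10 genes was 0.20 with ERL, 0.00 with cSNX and -0.06 between the lines, beside 0.01, 0.00 and 0.01 over all genes tested. Called genes here are those with an adjusted p under 0.05.

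**Figure D1:**
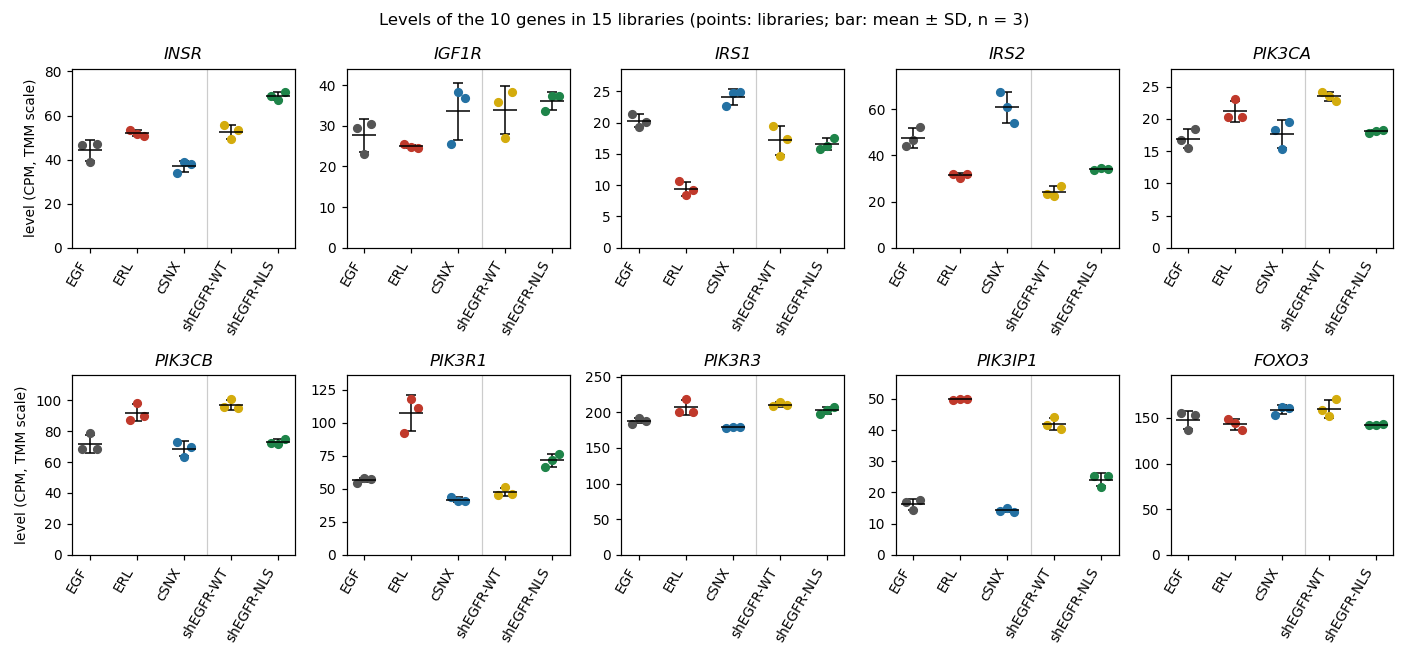
Level of each of the 10 genes in CPM (vertical axes, from 0) in the 3 libraries of each of the 5 groups, with points for libraries and bars for the mean ± SD (n = 3); a grey line separates the drug experiment from the line experiment. PIK3IP1 stood at 49.5 to 50.0 CPM in ERL and at 14.2 to 17.6 in EGF, while PIK3R3 and FOXO3 kept similar levels in all groups.

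**Figure D2:**
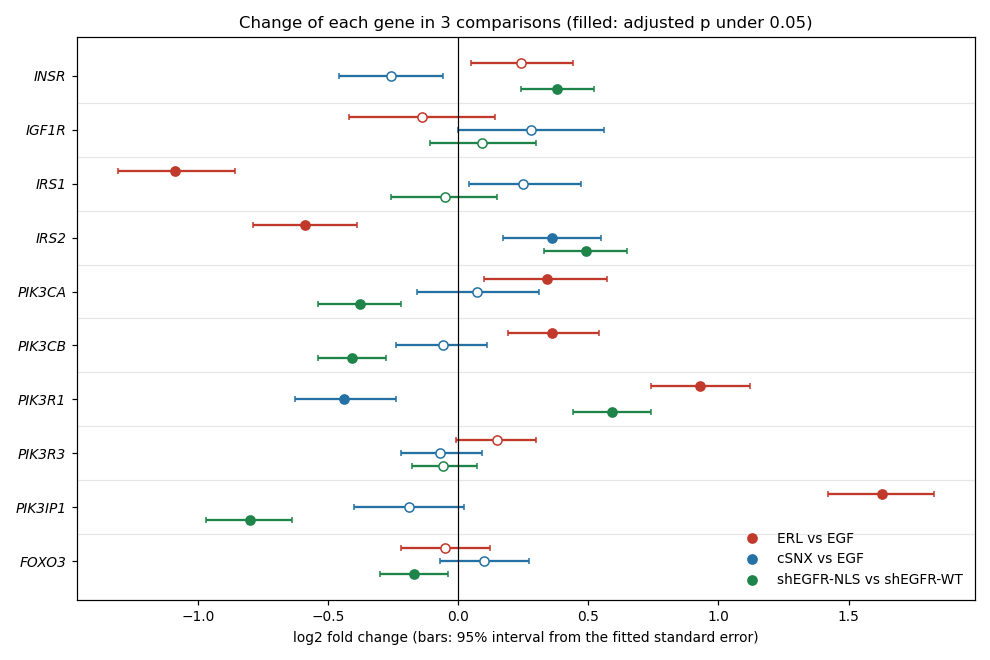
Log2 fold change of each gene (horizontal axis) with erlotinib, with cSNX and between the lines, with bars for the 95% interval from the fitted standard error; filled points have an adjusted p under 0.05. PIK3R1 was higher with ERL (0.93) and in shEGFR-NLS (0.59) and lower with cSNX (-0.44), and PIK3IP1 was higher with ERL (1.63) and lower in shEGFR-NLS (-0.80).

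The insulin receptor gene INSR (chromosome 19, 7112255 to 7294414, minus strand, GRCh38, 22 exons in its canonical transcript) was highest in shEGFR-NLS and lowest in cSNX. Its level was 46.5, 38.8 and 47.3 CPM in the EGF libraries, 53.6, 51.8 and 50.7 in ERL and 33.8, 38.7 and 38.0 in cSNX. In the lines it was 55.6, 49.3 and 53.3 CPM in shEGFR-WT and 68.7, 67.0 and 70.7 in shEGFR-NLS. Every ERL library lay above and every cSNX library below the EGF libraries, the latter by as little as the gap from 38.7 to 38.8 CPM, and every shEGFR-NLS library lay above those of shEGFR-WT. INSR rose by a log2 fold change of 0.38 ± 0.07 (SE) between the lines (edgeR adjusted p = 0.000429). With ERL the log2 fold change was 0.24 ± 0.10 (adjusted p = 0.0576 in edgeR) and with cSNX -0.26 ± 0.10 (adjusted p = 0.157), neither of which passed. The ERL value passed under 3 of 15 alternative settings (edgeR adjusted p between 0.0279 and 0.271 over all of them), and the cSNX value passed without EGF replicate 2 (log2 fold change -0.35, adjusted p = 0.0448).

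IGF1R, the receptor for insulin-like growth factors (chromosome 15, 98648539 to 98964530, plus strand, 21 exons), passed in none of the comparisons with EGF or between the lines. It was at 29.4, 23.0 and 30.5 CPM in EGF, 25.4, 24.7 and 24.6 in ERL and 25.5, 38.3 and 36.8 in cSNX. It stood at 35.8, 27.1 and 38.3 CPM in shEGFR-WT and 33.5, 37.2 and 37.3 in shEGFR-NLS. One library of each of EGF, cSNX and shEGFR-WT was low, and the groups overlapped in all 3 comparisons. The log2 fold change was -0.14 ± 0.14 with ERL (edgeR adjusted p = 0.455), 0.28 ± 0.14 with cSNX (0.305) and 0.09 ± 0.11 between the lines (0.514). Single libraries decided the last of these and the cSNX value. Without cSNX replicate 1 the cSNX log2 fold change was 0.45 and passed (adjusted p = 0.0364), and without shEGFR-WT replicate 2 the value between the lines turned to -0.04.

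IRS1, a docking protein for the activated receptors (chromosome 2, 226731312 to 226799820, minus strand, 2 exons), fell with erlotinib and passed in no other comparison with EGF or between the lines. Its level was 21.4, 19.3 and 20.1 CPM in EGF, 10.6, 8.47 and 9.24 in ERL and 22.6, 24.7 and 24.9 in cSNX. The lines held 19.4, 14.7 and 17.4 CPM in shEGFR-WT and 15.8, 16.3 and 17.6 in shEGFR-NLS. All ERL libraries were below all others of the drug experiment, all cSNX libraries were above those of EGF, and the line groups overlapped. With ERL the gene was at 0.471 of its EGF level, a log2 fold change of -1.09 ± 0.11 (edgeR adjusted p = 1.61e-06). With cSNX it was 0.25 ± 0.11 (edgeR adjusted p = 0.21) and between the lines -0.05 ± 0.10 (adjusted p = 0.723).

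IRS2, the other docking protein (chromosome 13, 109752695 to 109786583, minus strand, 2 exons), passed in all 3 comparisons. It stood at 43.9, 46.5 and 52.2 CPM in EGF, 32.1, 30.3 and 31.8 in ERL and 67.5, 61.1 and 54.2 in cSNX. In shEGFR-WT it was at 23.4, 22.6 and 26.8 CPM and in shEGFR-NLS at 33.5, 34.6 and 34.0. No pair of neighbouring groups in the order cSNX, EGF, shEGFR-NLS, ERL, shEGFR-WT overlapped. IRS2 fell with ERL by 0.59 ± 0.10 on the log2 scale (edgeR adjusted p = 0.000209) and rose by 0.49 ± 0.08 in shEGFR-NLS over shEGFR-WT (edgeR adjusted p = 0.000196). It rose with cSNX by 0.36 ± 0.10 (edgeR adjusted p = 0.0407), a call lost under 8 of 15 alternatives. Among them were the fit of EGF and cSNX alone (edgeR adjusted p = 0.0721) and the fits without EGF replicate 1 (0.204), EGF replicate 2 (0.0971), cSNX replicate 1 (0.127) and cSNX replicate 2 (0.14). IRS2 shares 115 of its 8156 exonic bases with an antisense non-coding gene, and the counting did not use strand.

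PIK3CA, the alpha catalytic subunit (chromosome 3, 179148114 to 179240093, plus strand, 21 exons), had a highest group mean 1.39 times the lowest. It was at 16.7, 15.5 and 18.5 CPM in EGF, 20.3, 23.1 and 20.3 in ERL and 18.3, 15.3 and 19.6 in cSNX. In the lines it was at 24.2, 23.5 and 22.8 CPM in shEGFR-WT and 17.9, 18.1 and 18.3 in shEGFR-NLS. The ERL libraries lay above those of EGF, the cSNX libraries spanned them, and the shEGFR-NLS libraries lay below those of shEGFR-WT. PIK3CA rose with ERL by 0.34 ± 0.12 on the log2 scale (edgeR adjusted p = 0.0312), showed 0.07 ± 0.12 with cSNX (0.812) and fell by 0.38 ± 0.08 in shEGFR-NLS (0.00139). The ERL call was lost without EGF replicate 1 (edgeR adjusted p = 0.0857), EGF replicate 2 (0.113), ERL replicate 2 (0.107) or ERL replicate 3 (0.0501). PIK3CA shares 3403 of its 17189 exonic bases with KCNMB3 on the other strand, so without strand some of its reads cannot be assigned to either gene with certainty.

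PIK3CB, the beta catalytic subunit (chromosome 3, 138652698 to 138834928, minus strand, 24 exons), moved in the same directions as PIK3CA with ERL and between the lines. Its level was 68.4, 78.7 and 68.6 CPM in EGF, 87.4, 98.1 and 90.0 in ERL and 72.9, 63.4 and 69.8 in cSNX. The lines gave 95.9, 101 and 94.8 CPM in shEGFR-WT and 72.1, 71.9 and 75.0 in shEGFR-NLS. ERL lay above EGF and shEGFR-NLS below shEGFR-WT in every library, and cSNX overlapped EGF. PIK3CB rose 1.29-fold with ERL (log2 fold change 0.36 ± 0.09, edgeR adjusted p = 0.00378) and was at 0.751 of the shEGFR-WT level in shEGFR-NLS (-0.41 ± 0.07, edgeR adjusted p = 0.000114). With cSNX the log2 fold change was -0.06 ± 0.09 (edgeR adjusted p = 0.768).

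PIK3R1, which encodes a regulatory subunit and its shorter forms (chromosome 5, 68215740 to 68301821, plus strand, 16 exons), was called in opposite directions with ERL and with cSNX, as IRS2 was. PIK3R1 is among the natural killer cell cytotoxicity genes that the study displayed from these libraries in a figure. Its directions with ERL and with cSNX are therefore not independent evidence. The study's text describes such genes shared by both treatments as lower with erlotinib and higher with cSNX1.3. PIK3R1 went the other way with both. It was at 54.6, 57.9 and 57.2 CPM in EGF, 92.1, 118 and 111 in ERL and 43.7, 41.0 and 40.4 in cSNX. The lines held 45.4, 51.0 and 46.2 CPM in shEGFR-WT and 66.6, 71.6 and 76.3 in shEGFR-NLS. No neighbouring groups overlapped in the order ERL, shEGFR-NLS, EGF, shEGFR-WT, cSNX. The gene rose 1.91-fold with ERL (log2 fold change 0.93 ± 0.10, edgeR adjusted p = 1.53e-06) and 1.5-fold in shEGFR-NLS (0.59 ± 0.08, adjusted p = 1.58e-05). It fell to 0.739 of the EGF level with cSNX (-0.44 ± 0.10, edgeR adjusted p = 0.0123). That call was lost without EGF replicate 3 (edgeR adjusted p = 0.0554), cSNX replicate 2 (0.0535) or cSNX replicate 3 (0.0515), with log2 fold changes of -0.42 to -0.47 over the 6 fits that left out a library.

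PIK3R3, another regulatory subunit (chromosome 1, 46040140 to 46133036, minus strand, 10 exons), passed in no comparison with EGF or between the lines. It stood at 184, 192 and 188 CPM in EGF, 201, 219 and 201 in ERL and 178, 179 and 180 in cSNX. It was at 209, 215 and 210 CPM in shEGFR-WT and 197, 204 and 207 in shEGFR-NLS. The groups of each comparison did not overlap, yet the log2 fold changes were 0.15 ± 0.08 with ERL (edgeR adjusted p = 0.147), -0.07 ± 0.08 with cSNX (0.707) and -0.06 ± 0.06 between the lines (0.486). The highest group mean was 1.18 times the lowest. PIK3R3 shares 1292 of its 7397 exonic bases with a readthrough gene on the same strand, which had no count in any library, so reads there may have been left out of the count.

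PIK3IP1, a membrane protein that binds the catalytic subunit and inhibits PI3K (chromosome 22, 31281594 to 31292534, minus strand, 6 exons), had the widest range of the 10 genes, with a highest group mean 3.50 times the lowest. It was at 16.8, 14.2 and 17.6 CPM in EGF, 49.5, 50.0 and 49.8 in ERL and 14, 14.9 and 13.8 in cSNX. The lines held 41.7, 44.1 and 40.3 CPM in shEGFR-WT and 25.1, 21.8 and 25.4 in shEGFR-NLS. The ERL libraries stood far above those of EGF, cSNX overlapped EGF, and every shEGFR-NLS library lay below every shEGFR-WT library. PIK3IP1 rose 3.09-fold with ERL (log2 fold change 1.63 ± 0.10, edgeR adjusted p = 7.51e-09) and was at 0.573 of the shEGFR-WT level in shEGFR-NLS (-0.80 ± 0.08, adjusted p = 1.04e-06). With cSNX the log2 fold change was -0.19 ± 0.11 (edgeR adjusted p = 0.37). PIK3IP1, PIK3CA and PIK3CB thus rose with ERL and fell in shEGFR-NLS.

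FOXO3, a forkhead factor held in the cytoplasm by AKT (chromosome 6, 108559835 to 108684774, plus strand, 3 exons), had the narrowest range, with a highest group mean 1.13 times the lowest. It was at 155, 137 and 153 CPM in EGF, 149, 144 and 137 in ERL and 153, 162 and 161 in cSNX. It was at 159, 152 and 171 CPM in shEGFR-WT and 142, 142 and 143 in shEGFR-NLS. The drug groups overlapped EGF, and shEGFR-NLS lay below shEGFR-WT. The log2 fold change was -0.05 ± 0.09 with ERL (edgeR adjusted p = 0.697) and 0.10 ± 0.09 with cSNX (0.597). FOXO3 fell by 0.17 ± 0.07 on the log2 scale in shEGFR-NLS (edgeR adjusted p = 0.0482), a call lost under 11 of 14 alternatives, including the fits without shEGFR-NLS replicate 1 (0.0933), 2 (0.094) or 3 (0.137) and without shEGFR-WT replicate 1 (0.106) or 3 (0.216). RNA levels say nothing of where the FOXO3 protein was.

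The promoters of the 10 genes were searched for the core of the forkhead motif that FOXO factors bind. The letters GTAAACA, on either strand, were found in 2 of the 23 windows that RefSeq (GRCh38.p14) gives for the 10 genes, each 300 bases long from 250 before to 50 after a transcription start. They were found in 1202 of 35116 such windows over all genes, 3.42%. The matches are in PIK3CA, at chr3:179148198-179148224 (plus strand), 149 bases before the RefSeq start, and in PIK3IP1, at chr22:31292456-31292482 (minus strand), 16 bases after 1 of its 2 RefSeq starts. The starts used here lie inside the gene spans given above, and so do the matches. The 27 bases around each are shown 5′ to 3′ on the gene's strand, with the match in capitals, which in both reads as the reverse complement of the motif.
PIK3CA: gttcgttgttTGTTTACacgatgtgag
PIK3IP1: aaagagaggcTGTTTACcagaacagca
A match is a description of these letters and not a binding site. PIK3CB, which moved in the same directions as these genes with ERL and between the lines, had no match in its 2 windows, and PIK3R1 had none in 4.

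The treatments were also contrasted directly, in the same fit of 9 drug libraries, where the EGF libraries take no part in the fold change but help to set the filter, the scaling and the spread. Between cSNX and ERL 8 of the 10 genes passed, with IGF1R, IRS1 and IRS2 higher and INSR, PIK3CB, PIK3R1, PIK3R3 and PIK3IP1 lower with cSNX, against 56.1% of all genes tested, 27.6% higher and 28.5% lower. The libraries of these groups did not overlap for any of the 10 genes, where this held for 60.2% of all genes tested. PIK3IP1 was at 0.284 of its ERL level with cSNX (log2 fold change -1.81 ± 0.11, edgeR adjusted p = 9.04e-10) and PIK3R1 at 0.387 (-1.37 ± 0.10, adjusted p = 1.14e-08). IRS1 was 2.53-fold higher (edgeR adjusted p = 7.77e-08) and IRS2 1.93-fold higher (9.1e-07). The differences of INSR (-0.50 ± 0.10, edgeR adjusted p = 0.000503) and PIK3CB (-0.43 ± 0.09, 0.000765) were smaller. IGF1R (0.42 ± 0.14, edgeR adjusted p = 0.0202) and PIK3R3 (-0.22 ± 0.08, 0.0301) lost their calls under 6 and 9 of 15 alternatives. In the fit of the cSNX and ERL libraries alone, PIK3R3 did not pass (edgeR adjusted p = 0.0539) and 7 of the 10 genes were called. For IGF1R these included the fits without ERL replicate 2 (edgeR adjusted p = 0.0592), ERL replicate 3 (0.0551), cSNX replicate 2 (0.116) and cSNX replicate 3 (0.0749). For PIK3R3 they included the fits without ERL replicate 2 (edgeR adjusted p = 0.0816), ERL replicate 3 (0.055), cSNX replicate 1 (0.0627), 2 (0.0756) or 3 (0.0729). PIK3CA (-0.26 ± 0.12, edgeR adjusted p = 0.069) and FOXO3 (0.14 ± 0.09, 0.171) did not pass.

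The changed localization sequence and the peptide are both meant to keep EGFR out of the nucleus. The effect in the lines was therefore set against that of cSNX in a fit of all 15 libraries. The difference between the effects passed for 5 of the 10 genes, against 23.1% of 16524 genes. It was 1.03 ± 0.13 on the log2 scale for PIK3R1 (edgeR adjusted p = 2.94e-06), which fell with cSNX and rose in shEGFR-NLS, and 0.64 ± 0.12 for INSR (0.000411). For PIK3IP1, which fell in shEGFR-NLS and did not pass with cSNX, it was -0.61 ± 0.13 (edgeR adjusted p = 0.00133). The differences of PIK3CA (-0.45 ± 0.14, edgeR adjusted p = 0.0244) and PIK3CB (-0.35 ± 0.11, 0.0289) lost their calls under 8 and 11 of 19 alternatives. For PIK3CA these included the fits without EGF replicate 1 (edgeR adjusted p = 0.0549), EGF replicate 2 (0.0719), cSNX replicate 1 (0.052), cSNX replicate 3 (0.0808) and shEGFR-WT replicate 1 (0.0574). For PIK3CB they included the fits without EGF replicate 1 (edgeR adjusted p = 0.0876), EGF replicate 3 (0.0831), cSNX replicate 1 (0.0631), cSNX replicate 3 (0.0575), shEGFR-NLS replicate 1 (0.0595), shEGFR-NLS replicate 2 (0.0626) and shEGFR-WT replicate 2 (0.0663). For IRS2, the gene that rose in both, the difference was 0.13 with an interval from -0.13 to 0.39 (edgeR adjusted p = 0.525). The experiments differ in more than the means of blocking EGFR, including the hairpin, the plasmid, the amount of EGFR and perhaps the EGF dose, and these cannot be told apart.

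**Figure D3:**
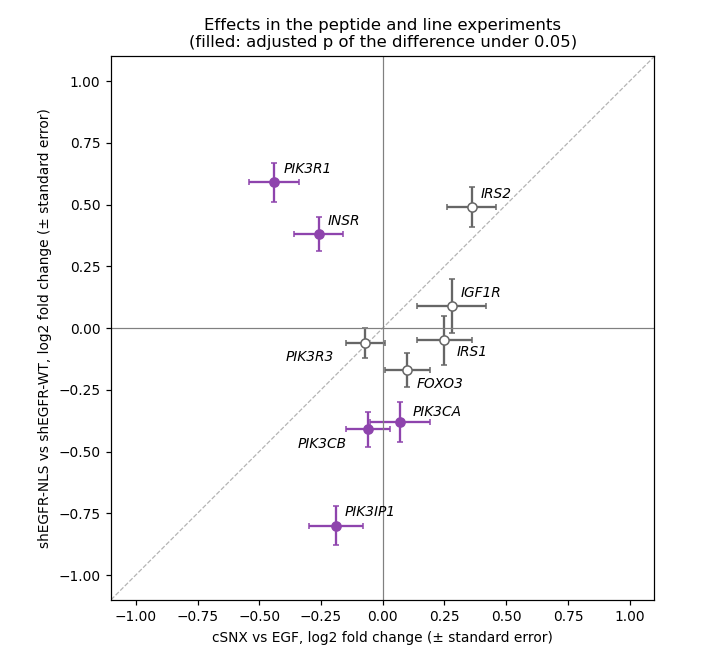
Log2 fold change between the lines (vertical axis) against that with cSNX (horizontal axis) for the 10 genes, with bars for the standard error and a dashed line where the effects would be equal; filled points have an adjusted p of the difference under 0.05. PIK3R1 and INSR lie above the line, with differences of 1.03 and 0.64, and PIK3IP1, PIK3CA and PIK3CB lie below it.

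Levels between genes were compared as CPM per kilobase of merged exon length. On that scale PIK3R3 was the highest of the 10 genes, with group means from 24.2 to 28.6 CPM per kb, followed by FOXO3 at 18.6 to 20.9. PIK3CA was at 0.984 to 1.37 and IRS1 at 0.944 to 2.40. PIK3CB made up 90.3% ± 1.36 (SD, n = 3) of the length-scaled sum of PIK3CA and PIK3CB in EGF, and its group means stayed between 89.5% and 90.5%. The share of PIK3R1 in the sum of PIK3R1 and PIK3R3 was 11.8%, 12% and 12.1% in the EGF libraries, 17.2%, 19.7% and 20% in ERL and 9.99%, 9.41% and 9.25% in cSNX. It was 8.97%, 9.70% and 9.07% in shEGFR-WT and 13.3%, 13.7% and 14.3% in shEGFR-NLS, so that PIK3R3 was the larger part in every library. INSR made up 67.4% ± 0.972 of the sum of INSR and IGF1R in EGF, 72.9% ± 0.241 in ERL and 58.9% ± 3.63 in cSNX. IRS2 was 63.5% ± 3.26 of the sum of IRS1 and IRS2 in shEGFR-WT and 71.6% ± 1.12 in shEGFR-NLS. FOXO3 was 55.7% ± 1.32 of the sum of FOXO1, FOXO3, FOXO4 and FOXO6 in EGF, 45.4% ± 3.32 in ERL and 63.9% ± 0.483 in cSNX. FOXO6 had mean levels of 26.6 CPM in EGF, 37.1 in ERL and 19.7 in cSNX. The ERL libraries of FOXO6 were at 46.8, 30.7 and 33.7 CPM, so 1 library raised that mean. FOXO1, at a mean of 1.02 CPM per kb in EGF, shares 1352 of its 5957 exonic bases with a non-coding gene on the same strand. Some of its reads may have been left out of the sum. The length taken for a gene changes these shares. The canonical transcript was also used in place of merged exons, a choice made after seeing the data. PIK3R1 was then 19.4% of its sum in EGF and 29.3% in ERL, and its own level ranged from 5.98 to 15.4 CPM per kb in place of 2.56 to 6.57. FOXO3 was then 47.1% of its sum in EGF, 37.5% in ERL and 55.8% in cSNX. The group means of the PIK3CB share then ran from 85.2% in cSNX to 86.5% in ERL. Reads in the 3403 exonic bases that PIK3CA shares with KCNMB3 may have been left out, which would raise the PIK3CB share. PIK3R2, a further regulatory subunit, had 0 to 11 counts in a library, but 3942 of its 5163 exonic bases lie in a readthrough gene on the same strand, so its reads could have been left uncounted and it was kept out of the shares.

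**Figure D4:**
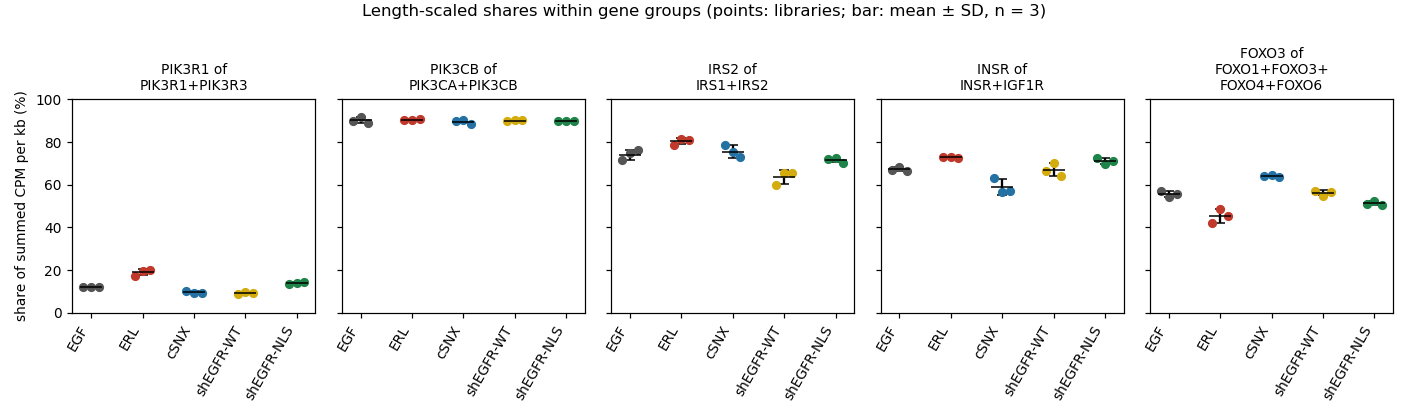
Share of 1 gene in the summed CPM per kilobase of merged exon length of its group, in percent, in each library (points) with the mean ± SD (n = 3). The PIK3R1 share is highest in ERL (17.2% to 20%), and the PIK3CB share has group means of 89.5% to 90.5%.

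The rest of the pathway was taken from a list of 97 genes written from general knowledge, with earlier results of these data known. Of these, 96 were in the table and 82 were tested in each main comparison. With ERL 27 of the 82 rose and 21 fell, together 58.5%, where 44.0% of all genes passed, 22.8% higher and 21.2% lower. The list's median log2 fold change was 0.04 beside 0.01 over all genes. Of the 21 tested genes reported as FOXO targets, 13 rose and 4 fell, against the same 22.8% and 21.2% of all genes, with a median of 0.43. Over 15 alternatives 12 to 14 rose and 4 fell. The largest rises by the naming rule were TRIM63 (log2 fold change 2.99 ± 0.51, edgeR adjusted p = 0.000207), a ubiquitin ligase at 1.60, 1.96 and 3.28 CPM in ERL against 0.452, 0.267 and 0.148 in EGF, IGFBP5 (1.76 ± 0.12, 1.29e-08), a binding protein of insulin-like growth factors, and TNFSF10 (1.45 ± 0.11, 8.18e-08), the death ligand TRAIL. The largest falls were INPP5D, a phosphatase of the PI3K product (-2.36 ± 0.19, edgeR adjusted p = 1.07e-07), SGK1, a kinase related to AKT (-1.95 ± 0.13, 1.09e-08), and BNIP3, a mitochondrial protein on the FOXO target list (-1.43 ± 0.10, 2.14e-08). FOXO4 rose with ERL from 15.1, 13.1 and 13.5 CPM to 26.4, 23.7 and 26.5 (0.88 ± 0.13, edgeR adjusted p = 5.52e-05), while FOXO1 gave -0.02 ± 0.14 (0.915). AKT1 fell by 0.34 ± 0.10 on the log2 scale (edgeR adjusted p = 0.00942). AKT2 (-0.21, edgeR adjusted p = 0.106) and PIK3CD, the delta catalytic subunit (-0.03, 0.913), did not pass.

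With cSNX 7 of the 82 tested genes of the list rose and 2 fell, where 3.38% of all genes were called higher and 2.69% lower. INPP5D (log2 fold change 0.97 ± 0.15, edgeR adjusted p = 0.000754), the transcription factor KLF6 (0.67 ± 0.08, 9.04e-05) and SGK1 (0.62 ± 0.12, 0.00371) rose most. FOXO4 (-0.54 ± 0.14, edgeR adjusted p = 0.0255) and BCL2L11, which encodes the death protein BIM (-0.45 ± 0.11, 0.0248), fell. These calls did not hold throughout. At an adjusted p under 0.01 in edgeR no gene of the list was called lower. The same was true without EGF replicate 3, cSNX replicate 1 or cSNX replicate 2. Without EGF replicate 1 FOXO4 was not called. None of AKT1 (0.18, edgeR adjusted p = 0.332), AKT2 (-0.01, 0.975), PIK3CD (0.62, 0.0902) and FOXO1 (0.31, 0.249) passed. Of the reported FOXO targets, 2 rose and 1 fell among 21 tested, beside the same 3.38% and 2.69% of all genes.

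Between the lines 18 of the 82 tested genes of the list rose and 25 fell, together 52.4%, where 41.4% of all genes passed, 20.4% higher and 21.0% lower. The list's median was -0.05 beside 0.01 over all genes, and on library totals without TMM 25 rose and 17 fell, with a median of 0.02. PIK3CD was 4.70-fold higher in shEGFR-NLS, at 3.89, 4.25 and 3.38 CPM against 0.761, 0.854 and 0.830 in shEGFR-WT (edgeR adjusted p = 1.41e-07). IRS4, a further docking protein (log2 fold change 1.91 ± 0.24, edgeR adjusted p = 7.6e-06), and INPP5J, an inositol phosphatase (0.65 ± 0.14, 0.00158), also rose. The receptor gene S1PR1 fell from 73, 75 and 89 counts to 8, 12 and 16 (log2 fold change -2.66 ± 0.28, edgeR adjusted p = 1.14e-06), IGFBP3 fell by 1.43 ± 0.08 (1.22e-09), and INPP4B, a phosphatase of the AKT-activating lipids, fell from 129, 131 and 132 CPM to 53.0, 52.1 and 53.2 (-1.31 ± 0.07, 3.03e-10). FOXO1 fell from 12.7, 13.0 and 12.5 CPM to 5.91, 5.95 and 5.19 (-1.16 ± 0.11, edgeR adjusted p = 3.66e-07), and FOXO4 gave -0.08 ± 0.09 (0.514). AKT2 fell by 0.23 ± 0.07 on the log2 scale (edgeR adjusted p = 0.00915), while AKT1 (0.15, 0.121) did not pass. Of 22 reported FOXO targets tested here, 3 rose and 8 fell, with a median of -0.12, beside 20.4% higher and 21.0% lower over all genes. On library totals without TMM 5 rose and 6 fell.

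**Figure D5:**
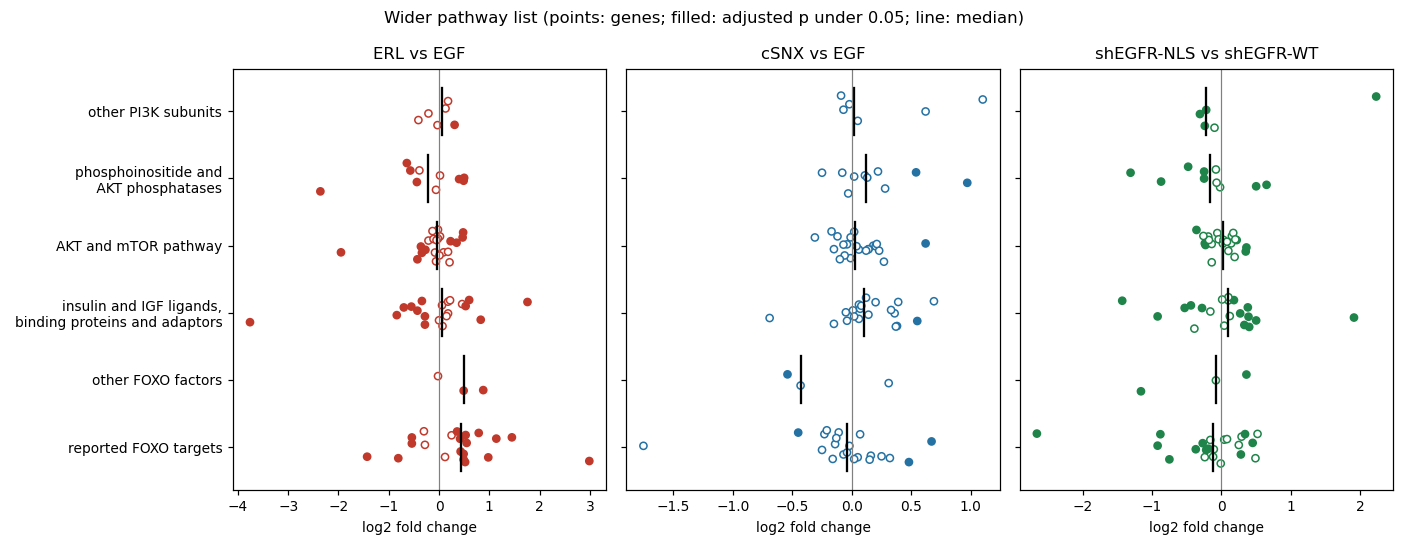
Log2 fold change of each tested gene of the wider pathway list (points, filled where the adjusted p is under 0.05) by role, with a line at each median, in the 3 comparisons; each panel has its own horizontal scale. The reported FOXO targets have a median of 0.43 with ERL, -0.04 with cSNX and -0.12 between the lines.

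The genes whose levels followed PIK3R1 and PIK3IP1 most closely were found by Pearson's correlation of log2 CPM over the 15 libraries among 13402 genes. These libraries form 5 groups, so the values describe likeness between group levels. For PIK3R1 they were PROM1 (r = 0.984), COPG2 (0.977), ATP13A5 (0.975), KIF5C (0.968) and TMPRSS3 (0.968). PROM1 stood at 53.0 to 57.2 CPM in EGF, 109 to 131 in ERL and 33.6 to 38.9 in cSNX. For PIK3IP1 they were ACCS (r = 0.987), ATG13 (0.98), PDE8B (0.979), C4orf33 (0.973) and TCHHL1 (0.972). ATG13, a component of the complex that starts autophagy, was at 45.4 to 50.4 CPM in EGF, 87.2 to 91.5 in ERL, 84.1 to 90.2 in shEGFR-WT and 61.0 to 64.4 in shEGFR-NLS.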

How the data were processed

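The 15 libraries hold RNA of MDA-MB-468 cells, and their groups were taken from the sample titles. The authors trimmed the reads with TrimGalore, aligned them to GRCh38 with STAR, counted read pairs per Ensembl gene with featureCounts without strand, and deposited raw counts that were not normalized. The annotation release is not given in the sources used here, so names, exons and coordinates were matched to GENCODE 44 (61399 of 61552 identifiers; 153 were not matched). Doses and times were taken from the study's methods.

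Differences were tested with edgeR 4.0.16 (R 4.3.3) by a robust quasi-likelihood test with TMM scaling and filterByExpr by group, with p-values adjusted by the Benjamini-Hochberg method over all genes tested. The 9 drug libraries, the 6 line libraries and, for the difference between effects, all 15 libraries were each fitted together. Levels are CPM on TMM-scaled library sizes, with SDs over 3 libraries and SEs from the model. Library totals were 22915676 to 35900649 counts, and each of the 10 genes had between 207 and 7585 counts in a library. Tested on simulated data for cSNX vs. EGF (15738 genes), the test called 37 of 67 genes changed 1.5-fold, 50 of 67 changed 2-fold, 61 of 66 changed 4-fold and 16 of 15538 unchanged genes.

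The 10 genes, the pathway list and the tests were chosen with earlier results of these data known. Named genes are the 10, EGFR, AKT1, AKT2, PIK3R2, PIK3CD, FOXO1, FOXO4 and, for the shares, FOXO6, besides markers of cell types. From the pathway list the 3 largest rises and falls per comparison are named. These were taken among called genes whose mean was 1 CPM or more and whose groups did not overlap. The 5 genes most correlated with PIK3R1 and with PIK3IP1 (prior count 2) are also named. With cSNX the list held only 2 called falls. Some genes that meet this rule are left out of the text. Replicates differed by more than sampling noise (chi-square per degree of freedom 2.69 to 24.5). EGF replicate 2 stood apart from replicates 1 and 3 (18.8 and 24.4, against 3.58 between those). Same-numbered libraries did not deviate together (correlations of -0.41 to 0.44 in the drug and -0.17 to 0.00 in the line experiment), so the main fits have no replicate block. Libraries with different numbers gave -0.57 to 0.62 in the drug and -0.13 to 0.21 in the line experiment. The highest value was for EGF replicate 2 with cSNX replicate 1. A deviation shared across groups that does not follow the replicate numbers was not tested. The alternatives tried were size factors from DESeq2, library totals without TMM, the test of DESeq2 1.42.0, either no filter on counts or one of 10 counts in each library, an adjusted p under 0.01, the replicate number as a block, fits of all 15 libraries or of the 2 groups compared, and each library left out in turn.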

Additional observations from a re-analysis of the deposited data

Results flagged for a closer look

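For 5 of the 10 genes, the effect in the line experiment (shEGFR-NLS less shEGFR-WT) and the effect of cSNX (less EGF) differed by edgeR's test of the difference itself. The log2 difference was 1.03 for PIK3R1, where the cSNX effect was -0.44 and the line effect 0.59, and 0.64 for INSR. It was -0.61 for PIK3IP1, -0.45 for PIK3CA and -0.35 for PIK3CB. PIK3R1, INSR and PIK3IP1 kept their calls under all 19 alternatives. PIK3CA and PIK3CB lost theirs under 8 and 11 of them, and on library totals without TMM their adjusted p in edgeR was 0.166 and 0.122. Groups of 3 libraries were not searched for outlying samples.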

How the results depend on the processing

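Of the single-gene values under alternatives, 8 changed direction, none of them called. On library totals without TMM FOXO3 turned to 0.06 with ERL and to -0.02 for cSNX vs. ERL, and IRS1 to 0.02 and PIK3R3 to 0.01 between the lines. Leaving out a library turned PIK3CA with cSNX to -0.01 (without cSNX replicate 3; range to 0.16), IRS1 between the lines to 0.04 (without shEGFR-WT replicate 1; range from -0.15), IGF1R to -0.04 (without shEGFR-WT replicate 2; range to 0.19) and PIK3R3 in the difference between effects to 0.00 (without shEGFR-NLS replicate 3; range to 0.03). With cSNX the 956 genes called became 470 at an adjusted p under 0.01 and 1444 in the fit of all 15 libraries, and 526 to 892 when a library was left out (526 without cSNX replicate 2, 531 without EGF replicate 1, 592 without EGF replicate 3). The 2 members called became 0 at 0.01, 1 on library totals and 1 in the fit of the 2 groups, and 0 to 2 when a library was left out. The 9 list genes became 5 at 0.01 and 5 to 10 when a library was left out. For the difference between effects, 3819 genes became 2359 at 0.01, and the 5 members became 3 at 0.01, 3 on library totals and 3 to 5 when a library was left out. With the replicate block, whose numbers do not pair the libraries, 1 member was called with cSNX and 3 in the difference between effects, and PIK3R3 for cSNX vs. ERL and FOXO3 between the lines also lost their calls (edgeR adjusted p = 0.0516 and 0.087). Library totals moved the median of all genes by 0.107 with ERL, -0.061 with cSNX, -0.167 for cSNX vs. ERL, 0.071 between the lines and 0.128 for the difference between effects. The share of called genes that were higher then went from 51.8% to 65.5%, from 55.6% to 39.8%, from 49.1% to 33.3%, from 49.3% to 61.0% and from 49.0% to 66.4%. On them INSR (edgeR adjusted p = 0.0286) and PIK3R3 (0.0131) passed with ERL. The causes were not tested. IRS1, IRS2, PIK3CB, PIK3R1 and PIK3IP1 with ERL, and INSR, IRS2, PIK3CA, PIK3CB, PIK3R1 and PIK3IP1 between the lines, kept direction and call under every alternative run. Group levels moved by more than 1 SD in 18 of 50 cases on library totals and in none with DESeq2's size factors. With 3 libraries a group, changes near 1.5-fold can be missed.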
